A study of Rattus norvegicus with 15 samples.

Results

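The pyruvate dehydrogenase complex and the kinases that switch it off were followed through 22 probe sets of 7 genes, out of 10969 named genes on 3 oligonucleotide array designs. The members were all probe sets whose platform gene symbol is Pdha1, Pdhb, Dlat, Dld, Pdk1, Pdk2 or Pdk4. Design A, named as the others are after the last letter of the sample titles, carried 11 of these probe sets, design B 4 and design C 7. The set was chosen by the strain difference of the Dlat probe set on array C, so the array C values of the members are given as a description, without a test.

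RNA came from kidneys of 5-week-old rats. The congenic kidneys (numbers 4 and 5, n = 2 on each of arrays B and C) came from a strain that carries a donor segment of chromosome 10 on the Dahl salt-sensitive (Dahl S) background. The other kidneys (numbers 1 to 3, n = 3 on each design) were Dahl S, an inbred rat that becomes hypertensive when fed salt. On array A all 5 kidneys are described as Dahl S, but numbers 4 and 5 are congenic on the other designs, so the strain of those 2 arrays is unsettled and no strain comparison uses them. The labels state neither the donor strain, the limits of the segment, the sex nor the diet. They do not say whether each number is a separate animal either, so a p-value here covers the spread among arrays, and that spread may be technical.

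Pyruvate dehydrogenase is the mitochondrial complex that turns pyruvate into acetyl-CoA and so commits carbon from glucose and lactate to oxidation. Its E1 component, built from Pdha1 and Pdhb, decarboxylates pyruvate. The E2 component Dlat forms the core and passes the acetyl group to coenzyme A on a swinging lipoyl arm, and the E3 component Dld, which is shared with other dehydrogenase complexes, reoxidises that arm. The kinases Pdk1 to Pdk4 phosphorylate Pdha1 and stop the complex, and the phosphatases Pdp1 and Pdp2 restart it. Renal proximal tubules oxidise mainly fatty acids, lactate and glutamine, and Pdk4 is known as a kinase that is induced by fasting through PPAR-alpha.

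Values are the deposited linear signal intensities, which differ in meaning between probe sets, so that no probe set is ranked against another by level. The median intensity of an array was between 294.5 and 334.3 on A, 472.8 and 519.5 on B, and 491.3 and 524.4 on C. A probe set was tested where its mean over the 5 kidneys reached the median of the design (319.5, 485.8 and 510.3 on A, B and C). Of the 22 member probe sets 16 passed this filter, 9 on A, 3 on B and 4 on C. Of the kidney markers, all 14 proximal tubule marker probe sets of array A (8 genes, among them Lrp2 and Slc34a1) were above the filter, and of its 10 skeletal muscle marker probe sets none was. Markers of tissues next to or outside the kidney were above the filter on array A for 4 of 9 adipose, 2 of 6 adrenal and 2 of 14 liver probe sets. On array C the same held for 1 of 3 skeletal muscle and 1 of 2 adipose probe sets. Deviations of the kidneys from their group mean correlated across designs, over 363 to 598 shared genes, at 0.00 to 0.17 for equal numbers and −0.14 to 0.10 for unequal numbers among kidneys 1 to 3. The difference of kidney 4 minus kidney 5 correlated across the same genes at 0.14 between A and B, 0.22 between A and C, and 0.21 between B and C.

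Of the members, Dlat on array C alone had congenic values that did not overlap the Dahl S values, out of 11 probe sets on B and C, 7 of them tested. The other 6 tested probe sets on B and C, for Pdhb, Dld and Pdk2, had log2 differences (congenic minus Dahl S) between 0.00 and 0.09. Values that do not overlap were found for 17.2% of all tested probe sets on B and 22.4% on C. The choice of the set by the Dlat value fixed 1 such member beforehand, so nothing is read from the count of members. On array A, where the strain is unsettled, none of the 3 Dlat probe sets placed both kidneys 4 and 5 below kidneys 1 to 3.

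**Figure D1:**
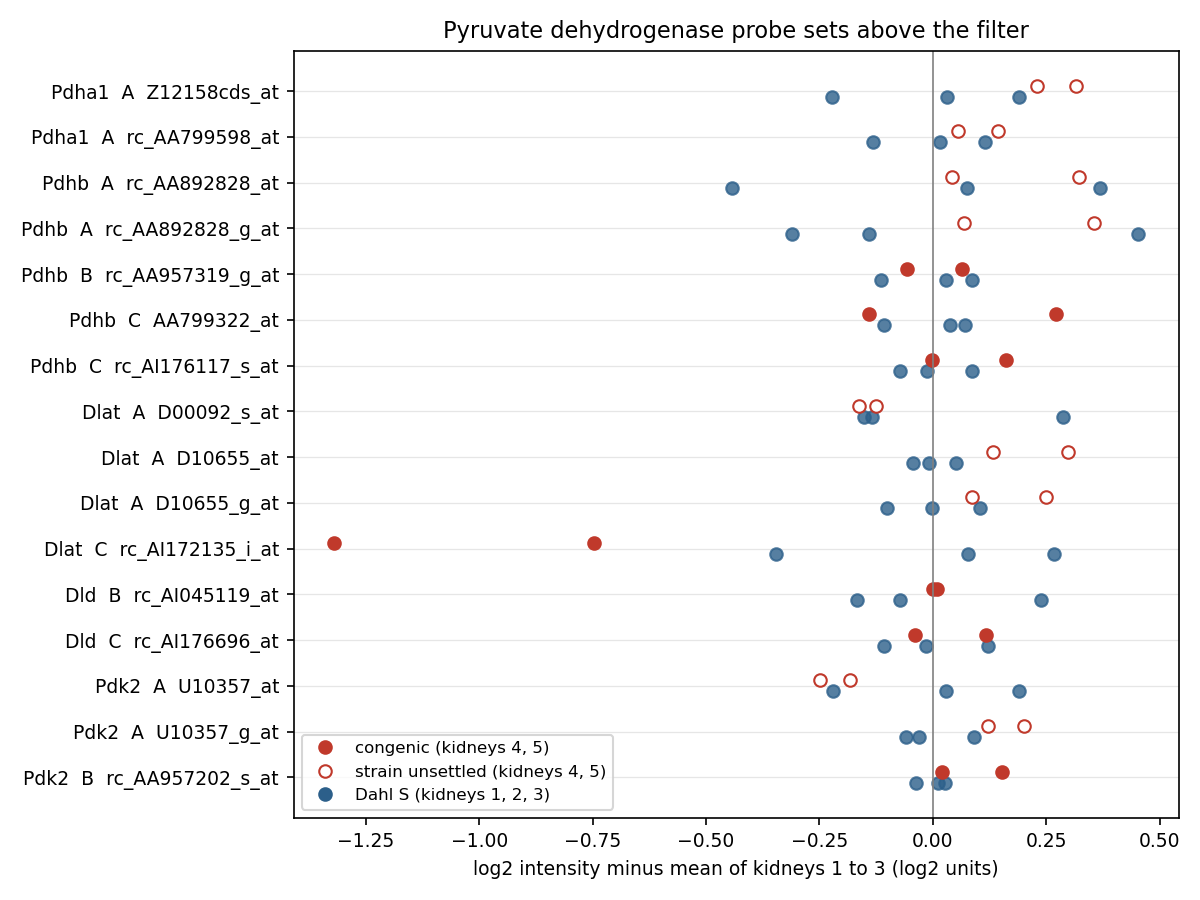
Log2 intensity of each kidney minus the mean of kidneys 1 to 3 (x axis, log2 units) for the 16 member probe sets above the filter, labelled by gene, array design and probe set. Red points are kidneys 4 and 5, filled where congenic and open where the strain is unsettled, and blue points are Dahl S kidneys 1 to 3. The Dlat probe set of array C stands at −0.75 and −1.32 in the congenic kidneys, while all other red points lie between −0.25 and 0.35.

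E1 alpha, the catalytic subunit that the kinases phosphorylate, was measured by both Pdha1 probe sets of array A. The probe set Z12158cds_at read 5107 and 4814 in kidneys 4 and 5 of unsettled strain, against 3522, 4196 and 4684 in Dahl S kidneys 1 to 3. Both unsettled kidneys lay above the Dahl S range. The probe set rc_AA799598_at read 12582 and 13373 in kidneys 4 and 5, against 11043, 12246 and 13116 in Dahl S kidneys 1 to 3. Here kidney 4 lay inside the Dahl S range and kidney 5 above it, and both Pdha1 probe sets ordered the Dahl S kidneys alike, with kidney 1 lowest and kidney 3 highest. The Dahl S mean was 4134 ± 584 for the first probe set and 12135 ± 1041 for the second (SD, n = 3).

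E1 beta, the partner of Pdha1 in the same tetramer, was measured by 6 Pdhb probe sets, of which 5 passed the filter. On array B the probe set rc_AA957319_g_at read 4004 and 3685 in congenic kidneys 4 and 5, against 3909, 3539 and 4068 in Dahl S kidneys 1 to 3. Both congenic values lay inside the Dahl S range (log2 difference 0.00, 95% interval −0.32 to 0.33, limma adjusted p = 0.999). The other array B probe set, rc_AA957319_at, read 225 and 117 in the congenic kidneys, against 182, 202 and 181 in the Dahl S kidneys, and was too dim to be tested. None of the member probe sets was called on array B, where limma called 4 of 4385 tested probe sets (0.0912%) at an adjusted p under 0.05.

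On array C the Pdhb probe set AA799322_at read 4270 and 3212 in congenic kidneys 4 and 5, against 3283, 3717 and 3630 in Dahl S kidneys 1 to 3. The congenic kidneys lay on either side of the Dahl S range, at a log2 difference of 0.07. The probe set rc_AI176117_s_at read 9678 and 8640 in the congenic kidneys, against 8232, 8573 and 9179 in the Dahl S kidneys, a log2 difference of 0.08. Kidney 4 was the highest of the 5 on both of these probe sets. A further array C probe set from the same sequence entry, rc_AI176117_i_at, has no gene name in the platform annotation and stayed at or below 79.2 on every array.

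On array A the Pdhb probe sets rc_AA892828_at and rc_AA892828_g_at spread widely among the Dahl S kidneys. The first read 3418 and 2817 in unsettled kidneys 4 and 5, against 2879, 3529 and 2012 in Dahl S kidneys 1 to 3. The second read 726 and 596 in kidneys 4 and 5, against 515, 778 and 458 in Dahl S kidneys 1 to 3. Both placed kidney 2 highest, kidney 4 next and kidney 3 lowest, and all values of kidneys 4 and 5 lay inside the Dahl S range. Their Dahl S SD was 0.41 and 0.40 on the log2 scale, larger than that of 89.9% and 89.3% of tested array A probe sets, while the Pdhb probe sets of B and C that passed the filter had SDs of 0.08 to 0.10.

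Dlat, the E2 core, was read by 4 probe sets, 3 on array A and 1 on array C, all above the filter. On array C the probe set rc_AI172135_i_at read 1218 and 817.7 in congenic kidneys 4 and 5, against 2155, 2458 and 1608 in Dahl S kidneys 1 to 3. Both congenic kidneys lay below all 3 Dahl S kidneys, with kidney 5 the lowest. The means were 1018 ± 283 in congenic kidneys (SD, n = 2) and 2074 ± 431 in Dahl S kidneys (SD, n = 3), which is 2.05-fold lower in congenic kidneys (log2 difference −1.03). This is the value for which the gene was chosen, so no test is read from it. By size of the difference it ranked at 29 of 4420 tested array C probe sets, 15 of which (0.339%) had a log2 difference of −1 or lower, and its congenic values were all lower as in 12.2% of them.

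The array A probe sets gave Dlat a different order of kidneys. The probe set D10655_at read 4231 and 3770 in kidneys 4 and 5 of unsettled strain, against 3338, 3565 and 3417 in Dahl S kidneys 1 to 3, so that both lay above the Dahl S range. The probe set D10655_g_at, from the same sequence entry, read 2103 and 2355 in kidneys 4 and 5, against 1847, 2130 and 1980 in Dahl S kidneys 1 to 3, with kidney 5 the highest and kidney 4 inside the range. The probe set D00092_s_at, from another Dlat sequence entry, read 1121 and 1150 in kidneys 4 and 5, against 1143, 1530 and 1129 in Dahl S kidneys 1 to 3. Kidney 4 was there just below the Dahl S range and kidney 5 inside it.

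Relative to the mean of kidneys 1 to 3, kidney 4 stood at −0.16, 0.30 and 0.09 on the log2 scale for D00092_s_at, D10655_at and D10655_g_at, and at −0.75 for the array C probe set. Kidney 5 stood at −0.13, 0.13 and 0.25 for the same array A probe sets and at −1.32 on array C. The array A probe sets therefore did not show the low values of kidneys 4 and 5 that array C showed. If those array A kidneys are Dahl S, no strain difference could appear there. Whether the Dlat probe sets of A and C differ on the strains therefore cannot be told. Within the Dahl S kidneys all 4 probe sets had kidney 2 as the highest, but kidneys 1 and 3 were ordered differently between them.

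**Figure D2:**
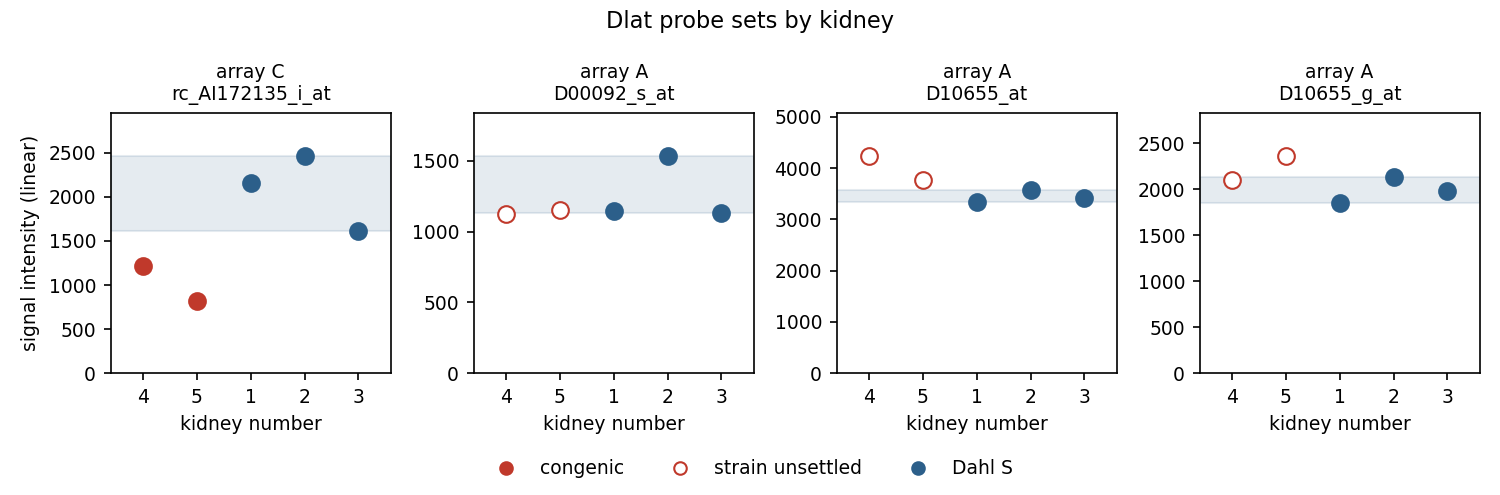
Signal intensity (y axis, linear, from 0) of the 4 Dlat probe sets in each kidney (x axis, kidney number), with the Dahl S range shaded. Filled red points are congenic kidneys, open red points kidneys of unsettled strain and blue points Dahl S kidneys. On array C kidneys 4 and 5 read 1218 and 817.7, below the shaded band, and on array A D10655_at puts the same numbers above it.

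The array C probe set of Dlat was also among the more variable ones within Dahl S. Its Dahl S SD of 0.31 on the log2 scale exceeded that of 87.0% of tested array C probe sets, whose median was 0.16. The SDs of the array A probe sets D00092_s_at, D10655_at and D10655_g_at were 0.25, 0.05 and 0.10. The suffix i in its name marks, in the maker's naming, a set with fewer probes than the full number, and the 42 tested array C probe sets with that suffix had a median Dahl S SD of 0.22, against 0.16 for the 4058 without a suffix letter. The strains were without overlap for 21.4% of those with the suffix i and for 22.3% of those without a letter. Of the 15 probe sets with a log2 difference of −1 or lower, 2 carried the suffix i (4.76% of those tested) and 12 had no suffix letter (0.296%). Dlat is 1 of the 2 and was chosen for this difference, so these shares are not compared. The part of the suffix in the Dlat value was not tested.

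Measures of RNA and of cell content were set beside the Dlat difference. On array C the GAPDH control had a 3′ to 5′ signal ratio of 1.05 and 1.05 in congenic kidneys 4 and 5, against 1.09, 1.09 and 1.11 in Dahl S kidneys 1 to 3, without overlap. On array A the same ratio was 1.04 and 1.04 in kidneys 4 and 5 of unsettled strain, against 1.07, 1.06 and 1.07 in Dahl S kidneys. The beta-actin ratio on array C overlapped, at 1.37 and 1.45 in congenic kidneys, against 1.49, 1.5 and 1.38 in Dahl S kidneys. On array A it did not overlap, at 1.32 and 1.35 in kidneys 4 and 5 of unsettled strain, against 1.45, 1.55 and 1.42 in Dahl S kidneys. On array B the GAPDH and the beta-actin ratios overlapped between the strains. Leukocyte markers on array C (9 probe sets of 7 genes) summed to 11245 and 9735 in congenic kidneys, against 11720, 9319 and 12166 in Dahl S kidneys. Of the other marker lists on array C, skeletal muscle markers (3 probe sets) summed to 2920 and 3098 in congenic kidneys, against 2741, 2872 and 2436 in Dahl S kidneys, so that both congenic kidneys lay above. The 1 liver marker probe set of array C, below the floor on all 5 arrays, read 52.4 and 69.2 in congenic kidneys, against 31.8, 40.8 and 37.0 in Dahl S kidneys. On that array the proximal tubule, distal tubule, collecting duct and podocyte lists held only 1 probe set each, and adipose 2 probe sets of 1 gene. Their values overlapped between the strains. On the other arrays, podocyte markers of array B (2 probe sets) summed to 5470 and 3374 in congenic kidneys, against 2691, 2788 and 3239 in Dahl S kidneys. Collecting duct markers of array A (12 probe sets) summed to 28070 and 24319 in kidneys 4 and 5 of unsettled strain, against 20728, 20401 and 22588 in Dahl S kidneys. In both of these sums kidneys 4 and 5 lay above kidneys 1 to 3. The part of cell content and of RNA quality in the Dlat value was not tested, and in whole kidney fewer cells of a type and less RNA per cell cannot be told apart.

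Only tested array C probe sets with 1 gene symbol were ranked by likeness to the Dlat probe set over the 5 kidneys. The most alike among them belonged to Kitlg (Pearson r = 0.99), Creb3l1 (0.99), Rex1bd (0.97), Nup98 (0.97) and Tie1 (0.97). Kitlg, the ligand of the receptor Kit, read 778 and 724 in congenic kidneys 4 and 5, against 923, 990 and 849 in Dahl S kidneys 1 to 3. Tie1, an endothelial receptor, read 384.5 and 252 in congenic kidneys, against 818.5, 689 and 486 in Dahl S kidneys. Only Dahl S kidneys 1 and 2 read above 510.3, the filter on the mean, for Tie1. A high r does not give the size of a difference. The log2 differences were −0.29 for Kitlg, −0.10 for Creb3l1, −0.11 for Rex1bd, −0.26 for Nup98 and −1.06 for Tie1. An r of 0.9 or more was reached by 60 of 4419 tested array C probe sets, with or without a gene symbol (1.36%), with 5 kidneys that share the strain grouping. The other tested members on array C had r of 0.08 and −0.38 for the Pdhb probe sets AA799322_at and rc_AI176117_s_at, and 0.10 for Dld. These correlations are descriptions over 5 kidneys.

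Dld, the E3 component, was measured by 1 probe set on each of B and C. On array B rc_AI045119_at read 2387 and 2376 in congenic kidneys 4 and 5, against 2114, 2259 and 2802 in Dahl S kidneys 1 to 3. Both congenic values lay inside the Dahl S range (log2 difference 0.00, 95% interval −0.38 to 0.39, limma adjusted p = 0.999). On array C rc_AI176696_at read 3769 and 3381 in congenic kidneys, against 3227, 3781 and 3442 in Dahl S kidneys, again inside the Dahl S range (log2 difference 0.04). The designs ordered the Dahl S kidneys differently, with kidney 3 highest on B and kidney 2 highest on C.

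Of the kinases, Pdk2 is the widely expressed form and the 1 member that lies on chromosome 10, the chromosome of the congenic segment. On array B rc_AA957202_s_at read 7404 and 6764 in congenic kidneys 4 and 5, against 6788, 6497 and 6715 in Dahl S kidneys 1 to 3. Kidney 4 was highest and kidney 5 lay inside the Dahl S range. The means were 7084 ± 452 in congenic kidneys (SD, n = 2) and 6667 ± 151 in Dahl S kidneys (SD, n = 3), a log2 difference of 0.09 (95% interval −0.22 to 0.39, limma adjusted p = 0.998). The SD of Pdk2 among Dahl S kidneys on this array, 0.03 on the log2 scale, was larger than that of 2.81% of tested probe sets.

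The pair of Pdk2 probe sets on array A, made from 1 sequence entry, differed in where they placed kidneys 4 and 5. The probe set U10357_at read 3302 and 3150 in kidneys 4 and 5 of unsettled strain, against 3819, 3217 and 4275 in Dahl S kidneys 1 to 3. The probe set U10357_g_at read 5111 and 4837 in kidneys 4 and 5, against 4734, 4356 and 4268 in Dahl S kidneys 1 to 3. On the first, kidney 5 was the lowest of the 5 and kidney 4 lay inside the Dahl S range, and on the second, both kidneys lay above all Dahl S kidneys. Dahl S kidney 3 was highest on the first and lowest on the second.

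Pdk1 and Pdk4 stayed below the filter on every probe set. Pdk4 on array A (AF034577_at) read 15.5 and 19.6 in kidneys 4 and 5, against 21.2, 34.7 and 25.9 in Dahl S kidneys 1 to 3, all below the floor of 85.1, under which values have no order. Pdk4 on array C (rc_AI175045_at) read 231 and 94.6 in congenic kidneys, against 135, 174 and 123.5 in Dahl S kidneys, with 3 of the 5 values below the floor of 153.6. Pdk1, a kinase known as a target of hypoxia-inducible factor, read 211 and 87.0 in kidneys 4 and 5, against 153, 180 and 105 in Dahl S kidneys, with L22294_at on array A. On array C its probe set rc_AA818005_i_at stayed below the floor on all 5 arrays. The probe set rc_AA818005_r_at read 229 and 251 in congenic kidneys, against 163, 314 and 656 in Dahl S kidneys. The Dahl S kidneys alone spanned that whole range, and neither kinase was tested.

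Counting array A, 3 of the 9 member probe sets above the filter put kidneys 4 and 5 both above Dahl S kidneys 1 to 3, namely 1 each for Pdha1, Dlat and Pdk2, and 0 put them both below. Over all 4411 array A probe sets above the filter, both lay above in 8.82% and both below in 10.1%. These counts carry no test, since the probe sets share the same kidneys and the strain is unsettled.

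**Figure D3:**
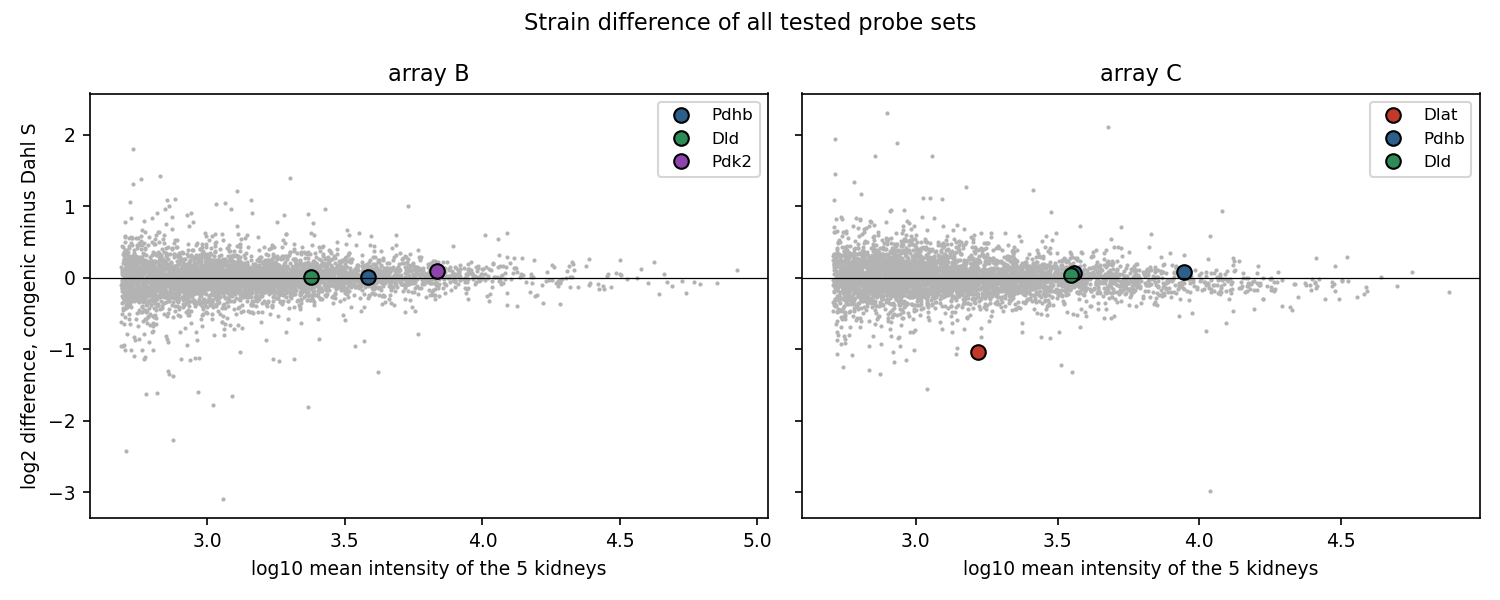
Log2 difference, congenic minus Dahl S (y axis), against log10 mean intensity of the 5 kidneys (x axis) for the 4385 tested probe sets of array B and the 4420 of array C (grey), with the tested members coloured by gene. Dlat on array C lies at −1.03, where 15 of the 4420 array C probe sets are at −1 or lower, and Pdhb, Dld and Pdk2 lie between 0.00 and 0.09.

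Promoter windows are shown for the gene with the low array C values and for the 1 member on chromosome 10. They come from RefSeq for the Brown Norway assembly GRCr8, so they are not read from these kidneys, and run from 250 bases before to 50 bases after the start given in the RefSeq promoter table, which for both genes lies inside the outer limit of the annotated gene. All 7 members had an entry. In the Dlat window (chr8:59900769-59901068, minus strand) the capitals mark a GC box, GGGCGG or its complement, and in the Pdk2 window (chr10:80483863-80484162, minus strand) they mark CCAAT boxes and an E-box, CACGTG.
Dlat: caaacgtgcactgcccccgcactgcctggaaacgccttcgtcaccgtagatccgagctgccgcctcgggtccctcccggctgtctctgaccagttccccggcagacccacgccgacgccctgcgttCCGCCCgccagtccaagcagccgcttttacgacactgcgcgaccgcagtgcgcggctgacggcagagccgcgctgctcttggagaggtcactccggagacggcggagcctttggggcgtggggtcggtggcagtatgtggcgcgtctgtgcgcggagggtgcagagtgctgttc
Pdk2: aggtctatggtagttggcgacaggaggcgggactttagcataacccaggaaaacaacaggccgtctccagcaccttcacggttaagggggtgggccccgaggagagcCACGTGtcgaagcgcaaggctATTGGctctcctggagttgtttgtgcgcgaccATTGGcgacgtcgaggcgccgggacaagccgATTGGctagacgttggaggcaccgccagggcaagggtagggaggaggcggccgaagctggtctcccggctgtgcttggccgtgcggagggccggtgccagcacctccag
Searched on both strands, with no overlap between different motifs, GGGCGG was found once for Dlat and for Pdha1, in 2 places each for Pdk1 and Pdk4, and in 33.1% of all 33469 windows of this length. CCAAT was found in 3 places each for Pdk2 and Dld and in 1 for Pdk4, against 37.5% of all windows with a match. CACGTG was found in 2 places for Pdhb and in 1 for Pdk2, against 6.42% of windows.

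Partners of the complex outside the 7 members were few on B and C. Pdpr, the regulatory subunit of the phosphatase, read 888 and 674 in congenic kidneys 4 and 5, against 775, 1086 and 867.5 in Dahl S kidneys 1 to 3 on array B (log2 difference −0.22, limma adjusted p = 0.998). Mpc1, a subunit of the mitochondrial pyruvate carrier, read 14397 and 12506 in congenic kidneys, against 13397, 16441 and 13984 in Dahl S kidneys on array C (log2 difference −0.12, limma adjusted p = 0.920). Pdk3, the remaining kinase of the family, read 2191 and 1358 in congenic kidneys, against 1526, 1321 and 1748.5 in Dahl S kidneys on array C (log2 difference 0.18, limma adjusted p = 0.911). All 3 genes had overlapping strain values. Below the filter, Pdhx on array C (rc_AI170418_at) read 92.1 and 141 in congenic kidneys, against 95.4, 279 and 344 in Dahl S kidneys. Both congenic values and that of Dahl S kidney 1 were below the floor of 153.6, under which values have no order. The phosphatase Pdp1 on array B (rc_AI058387_i_at), also below the filter, read 243 and 321 in congenic kidneys, against 368, 400 and 249 in Dahl S kidneys.

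On array A, Pdhx, which anchors Dld to the Dlat core, read 241 and 354 in kidneys 4 and 5 of unsettled strain, against 375, 398.5 and 438 in Dahl S kidneys 1 to 3. The phosphatase Pdp2 read 873 and 920 in kidneys 4 and 5, against 1039, 1407 and 1099.5 in Dahl S kidneys with AF062741_g_at. Its other probe set, AF062741_at, read 514 and 868 in kidneys 4 and 5, against 785.5, 778 and 838 in Dahl S kidneys. Kidneys 4 and 5 lay below the Dahl S kidneys for Pdhx and for 1 of the Pdp2 probe sets, but on the other kidney 5 was highest. Over all 4411 array A probe sets above the filter, both lay below in 10.1%, and nothing is read from these placements. Mpc1 on array A (U47315_s_at) read 33132 and 21488 in kidneys 4 and 5, against 29053, 37835 and 15459 in Dahl S kidneys 1 to 3, the same order of kidneys as the Pdhb probe set rc_AA892828_at. Both Pdp1 probe sets of array A and that of Pdha2, the testis form of E1 alpha, stayed below the filter.

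The wider set of 5 lists around pyruvate metabolism held 22 tested probe sets on array B and 35 on array C besides the members. None of them passed an adjusted p of 0.05 with limma on either array, and 0 had an unadjusted p under 0.05, against 3.49% of all tested probe sets on B and 6.2% on C. Differences were above 0 for 14 and below 0 for 8 on B, and above 0 for 17 and below 0 for 18 on C. Over all tested probe sets, limma called 0 of 4420 on array C (0%), with 274 at an unadjusted p under 0.05.

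Sister complexes that share Dld or the lipoyl mechanism, with the enzymes of lipoate attachment, had 5 tested probe sets on B (median log2 difference −0.03) and 12 on C (median −0.02), against medians of −0.01 on each array over all tested probe sets. Lipt2, a lipoyl transferase, read 1134 and 1106.5 in congenic kidneys, against 1147, 1328.5 and 1183 in Dahl S kidneys on array B (limma adjusted p = 0.998). Dhtkd1, an E1 component of a dehydrogenase in lysine breakdown, read 3916 and 3537 in congenic kidneys, against 3207, 3185.5 and 2975 in Dahl S kidneys on array C (log2 difference 0.25, limma adjusted p = 0.842). Bckdha, the E1 alpha subunit of the branched-chain complex, was singled out after its values were seen, and read 775 and 1510 in congenic kidneys, against 605, 878.5 and 528 in Dahl S kidneys on array B (log2 difference 0.72, limma adjusted p = 0.998). Its congenic value was high in kidney 5 and inside the Dahl S range in kidney 4. On array A, J02827_at of Bckdha read 1420 and 1353 in kidneys 4 and 5 of unsettled strain, against 1373, 1273 and 1414 in Dahl S kidneys. There J02827_g_at read 2206 and 2278 in kidneys 4 and 5, against 2293, 1942 and 2258 in Dahl S kidneys. Kidney 5 lay inside the Dahl S range on both.

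Enzymes of pyruvate, lactate and acetyl-CoA handling had 7 tested probe sets on B, 6 above 0 (median log2 difference 0.14), and 4 on C, 3 above 0 (median 0.10). The median over all tested probe sets was −0.01 on each array, and the direction of the list was not tested. Crat, the carnitine acetyltransferase that buffers acetyl-CoA, read 11724 and 11870 in congenic kidneys, against 10958, 10263 and 9767 in Dahl S kidneys on array B (log2 difference 0.19, limma adjusted p = 0.998). Acss1, a mitochondrial acetyl-CoA synthetase, read 2679 and 2636 in congenic kidneys, against 2891, 3072 and 2847 in Dahl S kidneys on array C (log2 difference −0.14, limma adjusted p = 0.884). The strain values of both genes did not overlap on those probe sets, and neither passed the threshold. Acss1 went the other way on array B, with log2 differences of 0.19 and 0.25 for rc_AA848492_at and rc_AA848492_g_at. Those probe sets come from the same sequence entry and are both among the 6 above 0.

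Citric acid cycle genes, which take up the product of the complex, had 8 tested probe sets on B (median log2 difference 0.07) and 13 on C (median 0.00). Sdha, the flavoprotein of succinate dehydrogenase, read 7408.5 and 7133 in congenic kidneys, against 6569, 5711 and 6346 in Dahl S kidneys on array B (log2 difference 0.23, limma adjusted p = 0.998), and its other array B probe set, rc_AA925554_at, had a log2 difference of 0.07. Idh2, the mitochondrial NADP-dependent isocitrate dehydrogenase, read 9263 and 9082 in congenic kidneys, against 10125, 10316.5 and 10149.5 in Dahl S kidneys on array C (log2 difference −0.15, limma adjusted p = 0.877).

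Genes of the PPAR-alpha and fasting response, known for their link with Pdk4, had 1 tested probe set on B and 4 on C (median log2 difference 0.06). Esrra, a nuclear receptor that activates mitochondrial genes, read 2368 and 2186 in congenic kidneys, against 2490, 2510 and 2486 in Dahl S kidneys on array C (log2 difference −0.13, limma adjusted p = 0.885). Over all lists, strain values were without overlap for 3 of 22 tested probe sets on B (13.6%) and 4 of 35 on C (11.4%), beside 17.2% and 22.4% of all tested probe sets.

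**Figure D4:**
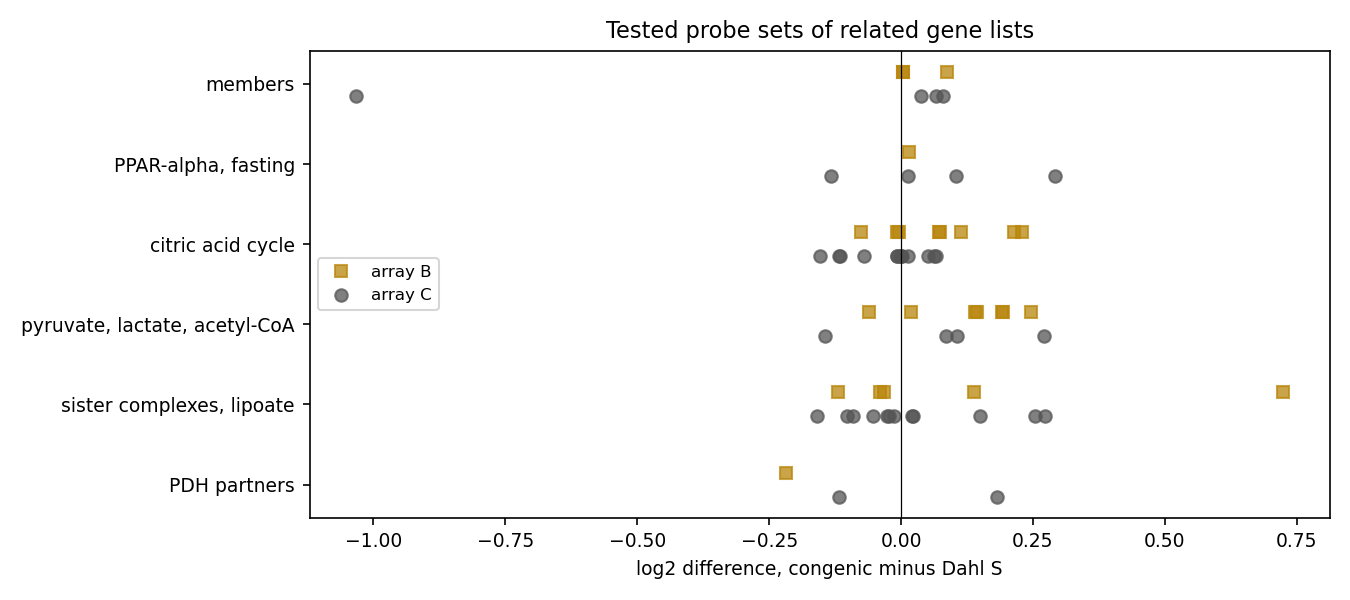
Log2 difference, congenic minus Dahl S (x axis), of each tested probe set in the 5 related lists and among the members (rows), with squares for array B and circles for array C. The points lie between −0.22 and 0.72 for the lists, and Dlat of array C stands apart among the members at −1.03.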

How the data were processed

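The deposited table of each design holds linear signal intensity by probe set. The authors had scaled the arrays to a common level, as the values show: trimmed by 2% at each end, array means lay between 1000.6 and 1001.3 on all 15 arrays. Their software is not given in the sources used. Per the labels, strain came from each sample's description. Each design was handled in its own table. Intensities below the 25th percentile of a design (85.1 on A, 140.1 on B, 153.6 on C) were set to that value as a floor before log2 was taken. Probe sets with a mean at or above the median were tested, leaving out 59 control probe sets per design, which left 4385 on B and 4420 on C. Congenic minus Dahl S was fitted over the whole table in R 4.3.3 with limma 3.58.1 (lmFit, eBayes), with Benjamini-Hochberg adjustment and a threshold of 0.05, and the procedure was tested on simulated data. Gene symbols came from the platform annotation, updated by gene identifier to RefSeq GRCr8. One symbol was held by 7006, 5351 and 5821 probe sets on A, B and C, of which 6985, 5333 and 5804 matched by identifier, several by 308, 38 and 45, and none by 1426, 3343 and 2864. The number of arrays limits the precision.

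Members and lists were chosen with earlier results of these data known. Named were all member probe sets, and from each of the 5 lists those past the threshold or, with none, up to 3 per array without overlap between strains, taken by smallest p, besides the 5 probe sets most like Dlat on array C. The partner genes were described besides. Alternatives tried were quantile and median scaling, other floors and filters, an intensity trend with robust variance, array weights, and leaving out each kidney.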

Additional observations from a re-analysis of the deposited data

Results flagged for a closer look

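On array A, kidneys 4 and 5 entered no comparison between strains. There 3 of the 9 member probe sets above the filter read higher in both of those kidneys than in every Dahl S kidney. Over all 4411 array A probe sets above the filter, both lay above in 8.82% and both below in 10.1%. No test is read from the count. Pdha1 (Z12158cds_at) read 5107 and 4814 in kidneys 4 and 5, against at most 4684 in Dahl S kidneys. Dlat (D10655_at) read 4231 and 3770, against at most 3565 in Dahl S kidneys. Pdk2 (U10357_g_at) read 5111 and 4837, against at most 4734 in Dahl S kidneys. The other tested array A probe sets of these genes did not place both kidneys above.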

How the results depend on the processing

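The array C difference of Dlat was −1.32 without congenic kidney 4 and −0.75 without congenic kidney 5. Its sign was fixed by the choice of the gene, whose strain values do not overlap, and is no sign of stability. Pdk2 on array B stayed between 0.02 and 0.15. Pdhb (rc_AA957319_g_at) and Dld on array B, both near 0, turned negative with quantile normalization (−0.0094 and −0.0059). Pdhb did so also with array quality weights (−0.014) and ranged from −0.056 to 0.063 when 1 kidney was left out, negative without Dahl S kidney 2 or congenic kidney 4. Dld ranged from −0.079 to 0.12 when 1 kidney was left out, negative without Dahl S kidney 1 or 2. Neither was called under any alternative (lowest adjusted p = 0.971 and 0.983). Pdhb on array C (AA799322_at) ranged from −0.14 to 0.27, Pdhb rc_AI176117_s_at from −0.0021 to 0.16 and Dld from −0.040 to 0.12 over the alternatives, each negative without congenic kidney 4 and Dld also without Dahl S kidney 1. The count of calls on array B, 4, was 1 with quantile normalization, median scaling, a floor at the 10th or 40th percentile, a filter at the 75th percentile or array quality weights, and 0 to 31 when 1 kidney was left out, 31 without congenic kidney 5. On array C, 0 became 2 without a filter, 1 with an intensity trend and robust variance, and 0 to 35 when 1 kidney was left out, 35 without congenic kidney 5. The causes were not tested. Where 1 congenic kidney remained it was assumed to vary like the Dahl S kidneys. No paired analysis was possible because the strains share no kidney number.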
